A study of Mus musculus with 67 samples.

Results

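The genes described here are the rodent placental families of prolactin-like hormones, placental cathepsins and pregnancy-specific glycoproteins (PSG). They were taken by symbol from the deposited wild-type expression matrix: every symbol that starts with Prl or Psg followed by a digit, plus Cts3, Cts6, Cts7, Cts8, Ctsj, Ctsm, Ctsq and Ctsr. This gave 47 of 25006 genes, 26 of them prolactin-like, 8 cathepsins and 13 PSG.

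In mice these families grew by repeated local gene duplication, and many of their members are made by trophoblast, the outer embryonic lineage that builds the placenta. Trophoblast giant cells, the polyploid cells that first invade the uterine lining, secrete placental lactogens that act through the maternal prolactin receptor and keep the corpus luteum producing progesterone. The placental cathepsins are cysteine proteases related to cathepsin L, and PSG are secreted immunoglobulin-domain proteins related to the CEACAM adhesion molecules.

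The study profiled polyadenylated RNA from small pools of cells, about 10 to 100 per sample, by Smart-seq2, a full-length cDNA method, across mouse implantation. All 67 libraries are wild type and fall into 23 groups of tissue, embryonic age and, where labelled, culture. A mouse line carrying EGFP under the Pdgfra promoter, a promoter active in primitive endoderm, was used to help separate lineages. Embryos came either from dissection out of the decidua, the transformed uterine lining, or from a 3-dimensional culture in Matrigel.

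The groups are the inner cell mass (ICM) at E3.5; trophectoderm (TE), the outer layer of the blastocyst, at E3.5 and E4.5; and, both at E4.75 and at E5.5, trophoblast giant cells (TGC) and extra-embryonic ectoderm (ExE), the trophoblast that stays next to the epiblast. Epiblast (Epi), the source of the embryo proper, was sampled at E4.5, at E5.5 and at the 3 ages between them, E4.75, E5.0 and E5.25. Primitive endoderm (PrE) was sampled at E4.5, E4.75, E5.0 and E5.25, and visceral endoderm (VE) at E5.5. At E5.5 the labels mark the groups as in vitro or in vivo; TGC of that age exist here only in vitro, ExE and Epi in both forms, and VE as an in vitro group and as in vivo VE next to Epi (VE_Epi) and next to ExE (VE_ExE). Epi at E5.0 and E5.25 has an in vivo group and an unmarked one. The culture status of E4.75 and of the other unmarked groups is not stated. Most groups have 3 libraries; TGC of E5.5 has 4, and the in vivo groups VE_Epi, ExE and Epi of E5.5 have 2 each. The protocol text speaks of biological replicates but ties no library to an embryo or pool, so p-values below measure the spread between these libraries. That spread is estimated for each gene over all 23 groups together.

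Values are in TPM, transcript abundance scaled for transcript length and for the library's total, so that levels can be compared between genes; TPM keep no record of read depth, which is unknown here, and a value of 0 can be a failed estimate. Libraries held between 8423 and 12644 genes at 1 TPM or more, and between 9585 and 10287 in TGC. Within groups the Pearson correlation of log2(TPM + 1) between libraries ran from 0.8914 to 0.9958. Replicate 1 of Epi at E4.5 stood apart. It had 3307 genes at 0 against 13659 and 12723 in the other libraries of its group, and 38 of the 47 members above 0 against 2 and 6. Its members outside the Prl3d genes did not exceed 1.557 TPM. It enters the comparisons below only through the shared estimate of spread and the filter that sets which genes are tested.

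The TGC label was checked against defining markers. The 4 marker genes of giant cells (Prl3d1, Cts7 and Psg22, which are members, and Hand1) summed to between 20573.2 and 24386.6 TPM in the libraries of TGC at E4.75, and to between 105541.7 and 120012.7 TPM at E5.5. In ExE of E4.75 the same sum was between 1744.6 and 1929.2 TPM. As 3 of these markers are members, the sum is no independent check of the label. Hand1, the marker outside the families, stood between 360.5 and 373.5 TPM in TGC of E4.75 and between 269.0 and 282.2 TPM in ExE of E4.75, and did not pass the test below. At E5.5 the TGC libraries had 0 TPM of the epiblast markers Pou5f1 and Nanog, and the 4 epiblast markers together reached at most 0.2506 TPM. Of the 8 decidual and stromal markers, Dcn, Pgr, Hand2, Col3a1 and Lum were at 0 in all TGC libraries. The sum over the list was between 72.84 and 77.97 TPM in TGC of E4.75, between 70.02 and 74.92 TPM in TGC of E5.5 and between 132.8 and 137.1 TPM in ExE of E4.75. At E5.5 most of it was Des, the desmin gene, which stood between 64.89 and 70.61 TPM in TGC, against a mean of 1.13 TPM in TGC of E4.75 and 4.86 TPM in ExE of E5.5 in vitro. In TGC of E4.75 only 2 genes of the list had a mean of 1 TPM or more, with Des among them. Nearly all of the sum there lay in a single gene, Col1a1 or Cryab, the other being below 1 TPM. The 6 parietal endoderm markers summed to between 92.05 and 103.9 TPM in TGC of E4.75 and between 159.2 and 211.4 TPM at E5.5. Of these, Thbd averaged 12.45 TPM in TGC of E4.75 and 143.1 TPM at E5.5. Fst, Pth1r, Lama1, Col4a1 and Sparc had lower means in TGC of E5.5 than of E4.75. The part of Des and Thbd in the comparisons with TGC of E5.5 was not tested.

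Promoter sequences are shown because the 3 Prl3d genes, which dominate the results, are close copies of each other upstream as well as within the coding sequence. The RefSeq promoter table of build GRCm38.p6 held windows for 39 of the 47 members, 43 windows in all. The 250 bases before the annotated start are printed 5′ to 3′ on the gene's own strand. Capitals mark 2 motifs searched on both strands. The first is GATAA, recognised by GATA factors, which shows as TTATC where it lies on the opposite strand. The other is TGANTCA, recognised by AP-1 factors. The windows are chr13:27093939-27094188 (plus) for Prl3d1, chr13:27121445-27121694 (plus) for Prl3d2, chr13:27156544-27156793 (plus) for Prl3d3, chr13:27642494-27642743 (minus) for Prl7a1, chr13:27242180-27242429 (plus) for Prl3b1 and chr13:61358197-61358446 (minus) for Cts7.
Prl3d1: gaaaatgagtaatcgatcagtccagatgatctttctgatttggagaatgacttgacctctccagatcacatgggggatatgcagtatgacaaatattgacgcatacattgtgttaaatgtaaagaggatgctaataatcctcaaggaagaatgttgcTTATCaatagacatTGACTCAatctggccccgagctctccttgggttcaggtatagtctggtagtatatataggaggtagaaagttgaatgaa
Prl3d2: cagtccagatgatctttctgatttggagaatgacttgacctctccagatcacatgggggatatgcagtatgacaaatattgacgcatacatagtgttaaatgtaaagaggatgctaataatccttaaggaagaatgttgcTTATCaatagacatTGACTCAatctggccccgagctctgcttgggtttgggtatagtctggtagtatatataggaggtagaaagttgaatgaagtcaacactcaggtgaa
Prl3d3: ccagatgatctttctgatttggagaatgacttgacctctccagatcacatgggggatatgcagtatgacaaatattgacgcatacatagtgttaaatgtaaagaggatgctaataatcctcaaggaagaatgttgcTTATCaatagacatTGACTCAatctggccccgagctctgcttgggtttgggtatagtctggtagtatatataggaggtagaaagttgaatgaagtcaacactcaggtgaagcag
Prl7a1: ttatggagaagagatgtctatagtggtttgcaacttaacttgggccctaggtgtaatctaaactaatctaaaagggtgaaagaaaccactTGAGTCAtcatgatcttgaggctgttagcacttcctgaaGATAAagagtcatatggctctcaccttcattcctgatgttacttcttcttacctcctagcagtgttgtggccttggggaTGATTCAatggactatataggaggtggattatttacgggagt
Prl3b1: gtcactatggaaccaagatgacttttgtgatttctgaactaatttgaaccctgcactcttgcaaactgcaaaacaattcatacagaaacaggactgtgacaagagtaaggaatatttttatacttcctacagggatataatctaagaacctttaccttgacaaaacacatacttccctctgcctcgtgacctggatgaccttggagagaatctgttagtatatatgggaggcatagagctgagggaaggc
Cts7: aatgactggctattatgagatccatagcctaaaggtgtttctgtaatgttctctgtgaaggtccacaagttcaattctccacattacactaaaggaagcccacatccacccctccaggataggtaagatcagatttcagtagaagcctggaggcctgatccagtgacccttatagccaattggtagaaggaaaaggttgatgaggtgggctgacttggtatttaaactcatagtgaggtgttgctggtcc

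The windows of the Prl3d genes are offset, since their annotated starts differ. Over the aligned columns without gaps, those of Prl3d1 and Prl3d2 were 97.9% identical over 233 columns, those of Prl3d1 and Prl3d3 98.3% over 229, and those of Prl3d2 and Prl3d3 99.6% over 246. With gaps counted as differences, the values were 85.4%, 83.0% and 96.5%. All 3 Prl3d windows held 1 GATAA and 1 TGANTCA, which in Prl3d1 lie at -93 to -89 and at -79 to -73 from the start. Prl7a1 held 1 GATAA and 2 TGANTCA. Neither motif was found in the windows of Cts7 or of Prl3b1, the gene of placental lactogen II, a hormone of later gestation. The counts over sets of members in this paragraph use a longer window, which adds the 50 bases after the start. Those bases are not printed above. Over all members, GATAA on either strand was in 27 of 43 such windows and TGANTCA in 13 of 43. The shares were 25.4% and 7.81% of the 32851 windows of the same length in the whole table. Prl8a6 (GATAA), and Prl2b1 and Prl8a9 (TGANTCA), had no match within the bases before the start and count only through the longer window. TGANTCA reads the same on both strands apart from its middle base, and the motifs do not overlap each other in the windows shown. Among genes that reached a mean of 10 TPM in some group, 8 of 12 held GATAA and 4 of 12 held TGANTCA; among the remaining genes the counts were 16 of 27 and 8 of 27. These are matches of letters only, and near copies among the members count repeatedly.

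The coding sequences of the Prl3d genes were 97.5% identical between Prl3d1 and Prl3d2, 98.2% between Prl3d1 and Prl3d3, and 98.7% between Prl3d2 and Prl3d3. Reads from one can therefore be assigned to another, and the split of the signal among the 3 genes is uncertain while their sum is less so. The same holds for the proliferins Prl2c2 and Prl2c3, 99.6% identical, for Prl2c5, which was 96.1% identical to Prl2c2 and 96.0% to Prl2c3, and for Psg22 and Psg19, at 93.9%. Cts7 and Cts8 shared 71.9%, Psg22 and Psg29 67.3%, and Prl3d1 and Prl3b1 60.7%.

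Most members were silent at these ages or nearly so, and the detected ones were concentrated in giant cells. A total of 19 members never reached 1 TPM in any library, and Prl2b1 and Psg27 were at 0 in every one. For the tests, 23 members had at least 1 TPM in at least 3 libraries: 16 prolactin-like genes, 3 cathepsins and 4 PSG. Of these 23, 22 had their highest group mean in TGC; because 11 of the 23 passed that filter only with the TGC libraries, the count is a description. The other 12 passed it in the libraries outside TGC alone: Cts7, Cts8, Psg22, Psg29 and 8 prolactin-like genes. The exception was Prl8a9, with 7.548, 9.016 and 6.035 TPM in ICM of E3.5.

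**Figure D1:**
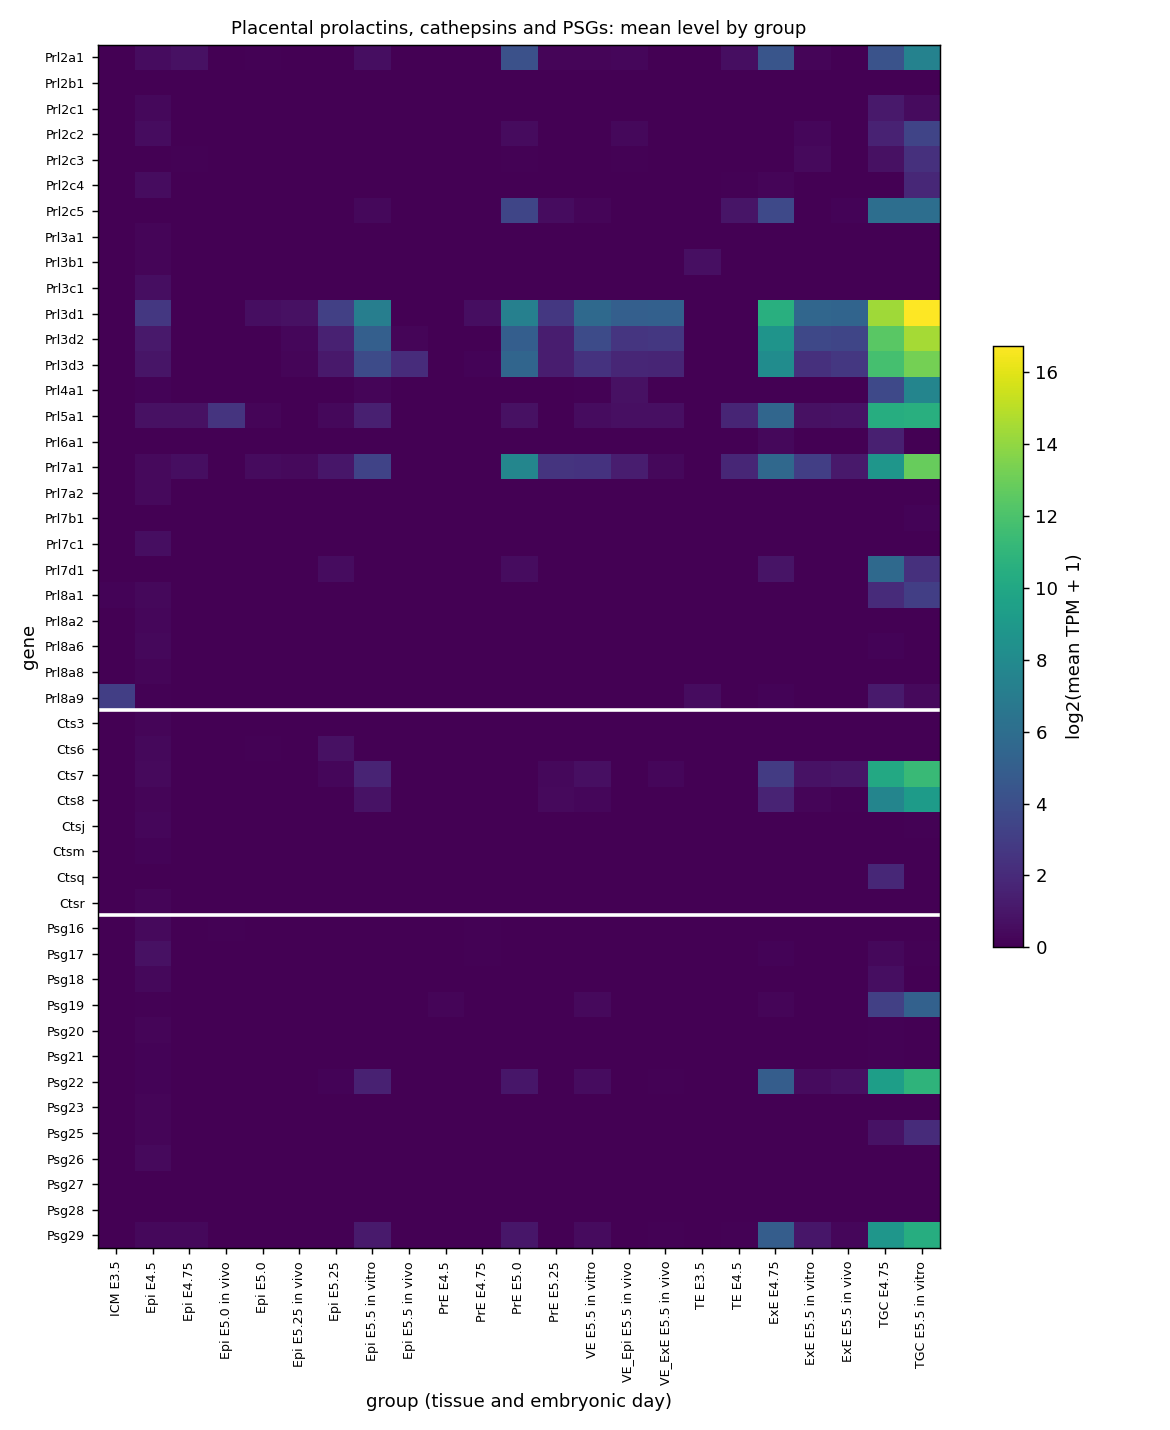
Mean level of all 47 members (rows, grouped by family) in the 23 groups (columns), as log2 of the group mean TPM + 1. The TGC columns hold 20 members at a mean of 1 TPM or more at E4.75 and 19 at E5.5, and most rows are near 0 elsewhere.

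At a group mean of 10 TPM or more, 13 members were present in TGC of each age, 9 in ExE of E4.75, 6 in PrE of E5.0 and 3 in Epi of E5.5 in vitro. Neither TE group had a member at that level. Together the 47 genes made up 3.679%, 3.12% and 3.697% of all TPM in the 3 TGC libraries of E4.75, and 16.69%, 16.78%, 15.45% and 14.68% in the 4 of E5.5. In bulk pools such as these, more cells of a type and more RNA per cell cannot be told apart. ExE of E4.75 came next at 0.241% ± 0.0160 (SD, n = 3), then PrE of E5.0 at 0.0472% ± 0.00475 and Epi of E5.5 in vitro at 0.0205% ± 0.00732 (n = 3 each). Within TGC the cathepsins went from 0.131% ± 0.0112 (n = 3) to 0.321% ± 0.0287 (n = 4) and the PSG from 0.112% ± 0.00692 to 0.334% ± 0.0275.

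The placental lactogen I genes Prl3d1, Prl3d2 and Prl3d3 carried most of the signal. They encode the first lactogen that giant cells secrete. They lie next to each other on chromosome 13 (GRCm38), Prl3d1 at chr13:27094190-27100258, with the starts of Prl3d2 and Prl3d3 27.5 and 62.6 kb further on. Their sum was 3.06% ± 0.290 (SD, n = 3) of all TPM in TGC of E4.75 and 14.3% ± 0.868 (n = 4) at E5.5. Prl3d1 was the most abundant gene in each of the 7 TGC libraries.

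Prl3d1 stood at 21954.3, 18585.5 and 22236.7 TPM in TGC of E4.75 and at 114777.5, 115075.6, 105772.3 and 101237.0 TPM in TGC of E5.5. In ExE it stood at 1612.9, 1460.8 and 1428.7 TPM at E4.75, at 34.03, 49.63 and 53.17 TPM at E5.5 in vitro, and at 58.61 and 22.52 TPM at E5.5 in vivo. It was listed at 0 in all TE libraries. The TGC libraries of the 2 ages did not overlap, and all lay above all ExE libraries.

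Prl3d2 stood at 5991.9, 5243.8 and 5891.7 TPM in TGC of E4.75, and at 23499.9, 24339.2, 22948.6 and 21994.7 TPM at E5.5. Prl3d3 stood at 3842.7, 3128.5 and 3951.6 TPM at E4.75, and at 10133.5, 10856.6, 9904.1 and 8612.7 TPM at E5.5. Both were higher in every library of the later age. Relative to Prl3d1 in the same library, Prl3d2 was at 27.3% in TGC of E4.75 and 27.0% in ExE of E4.75, and Prl3d3 at 17.4% and 19.0%. At E5.5 in TGC the ratios were 21.3% and 9.03%, with the uncertainty of shared reads noted above.

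**Figure D2:**
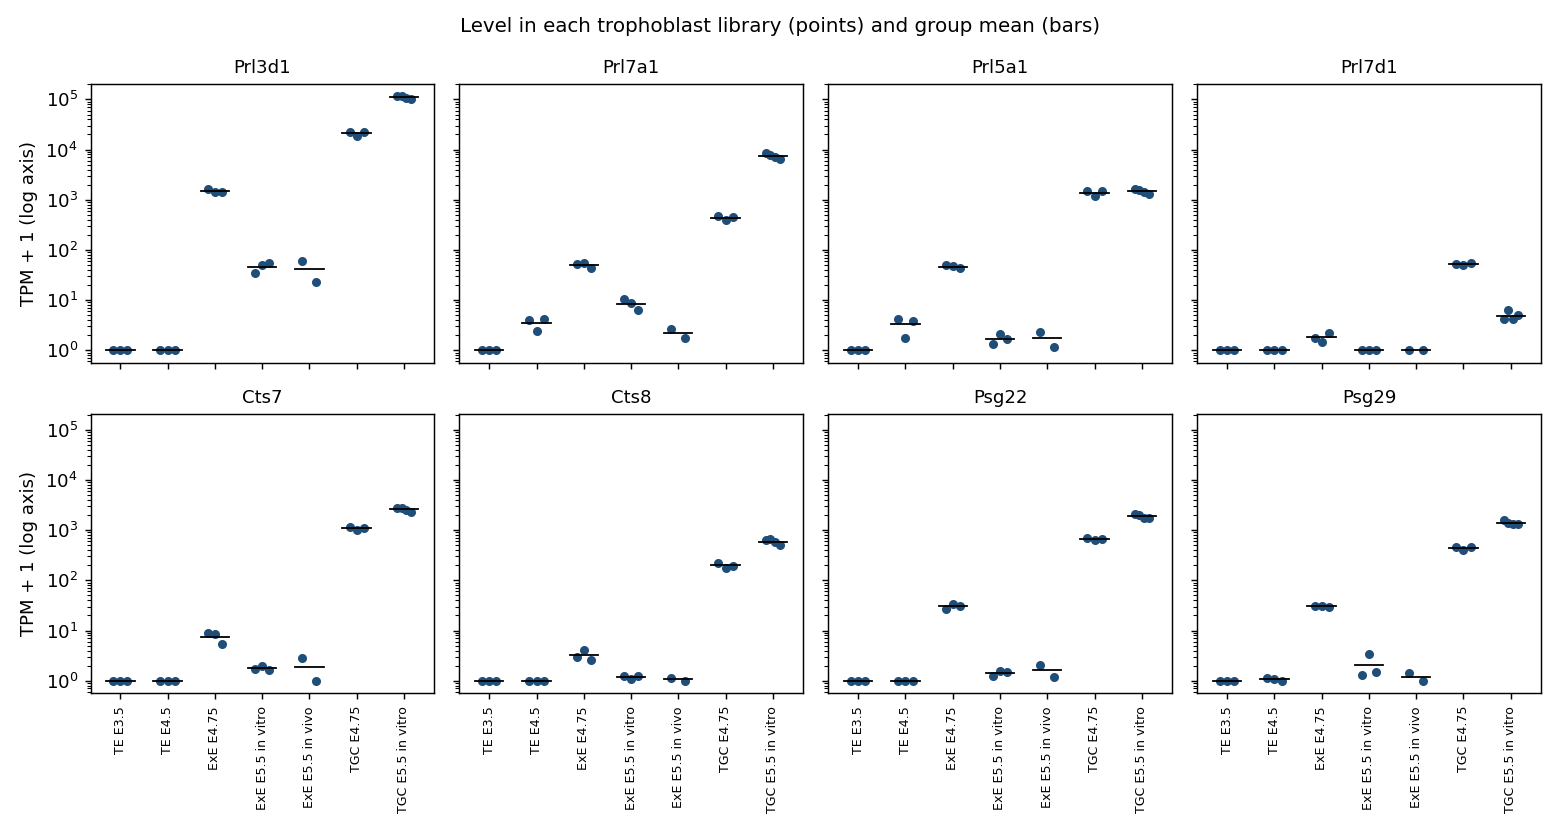
TPM + 1 on a log axis for 8 members in every TE, ExE and TGC library; points are libraries and bars group means. Prl3d1 is listed at 0 in TE, lies between 1428.7 and 1612.9 TPM in ExE of E4.75 and between 101237.0 and 115075.6 TPM in TGC of E5.5, while Prl7d1 is lower in TGC of E5.5 than of E4.75.

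The first comparison set TGC against ExE at E4.75, 2 trophoblast tissues of the same age. Of the 23 members tested, 19 were higher in TGC by limma's test on log2(TPM + 1), at an adjusted p under 0.05 and a log2 difference of at least 1; over all 15567 genes 2.12% were. The filter favours members that are high in TGC, so this count is a description. Among the 12 members that passed outside TGC alone, 11 were higher, beside 1.79% of the 15371 genes that did so. By family the 19 were 13 of 16 prolactin-like genes, 3 of the 3 cathepsins that could be tested, of which Ctsq passed only with TGC, and 3 of 4 PSG; the other 5 cathepsins were not tested. The median log2 difference over all genes was -0.15. Prl2a1, Prl2c3, Prl2c4 and Psg25 were not called.

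The cathepsins Cts7 and Cts8 had the widest gap. Cts7, a giant-cell protease at chr13:61352461-61358197, stood at 1162.6, 989.2 and 1125.7 TPM in TGC and at 7.879, 7.488 and 4.278 TPM in ExE. Its mean was 166.8-fold higher in TGC (log2 difference 7.21 ± 0.30 SE, limma adjusted p = 3.4e-26). Cts8, a related protease encoded nearby, stood at 220.2, 177.8 and 195.7 TPM against 1.909, 3.066 and 1.613 TPM. The log2 difference was 5.98 ± 0.21 (SE; limma adjusted p = 3e-29), and neither gene's groups overlapped. Ctsq was low, at 2.736, 2.286 and 2.833 TPM in TGC, and was listed at 0 in ExE.

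Among PSG, Psg22 at chr7:18718090-18727248, a PSG made by giant cells, stood at 697.4, 625.0 and 663.7 TPM in TGC and at 26.18, 32.4 and 29.65 TPM in ExE. The log2 difference was 4.45 ± 0.24 (SE; limma adjusted p = 6.8e-21). Psg29 stood at 456.0, 398.6 and 453.3 TPM against 29.96, 29.8 and 28.41 TPM (log2 difference 3.84 ± 0.26 SE, limma adjusted p = 1.8e-17). For both genes every TGC library was far above every ExE library. Psg19 was lower than both in TGC, at 7.982, 6.623 and 9.699 TPM, and reached at most 0.273 TPM in ExE.

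Among the prolactin-like genes, the 3 Prl3d genes were 13.9-fold, 14.1-fold and 12.8-fold higher in TGC in the order Prl3d1, Prl3d2 and Prl3d3. The log2 difference of Prl3d1 was 3.80 ± 0.85 (SE; limma adjusted p = 0.0013); with a pseudocount of 0.1 TPM its adjusted p was 0.081. Prl5a1 stood at 1463.7, 1194.6 and 1467.1 TPM in TGC and at 49.12, 46.06 and 42.07 TPM in ExE (log2 difference 4.88 ± 0.51 SE, limma adjusted p = 9.7e-11). Prl7d1, or proliferin-related protein, an inhibitor of vessel growth, stood at 51.35, 48.97 and 54.23 TPM in TGC against a mean of 0.803 TPM in ExE (log2 difference 4.88 ± 0.19 SE, limma adjusted p = 3.9e-27). For each of these genes the TGC and ExE libraries were apart.

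Prl7a1, a giant-cell hormone, stood at 471.7, 400.0 and 450.3 TPM in TGC and at 52.46, 54.37 and 43.65 TPM in ExE. Its mean was 8.79-fold higher (log2 difference 3.11 ± 0.46 SE, limma adjusted p = 1.3e-06; 0.05, no longer a call, with a pseudocount of 0.1 TPM). Prl2c5, one of the proliferins, which promote vessel growth, stood at 71.45, 54.92 and 68.04 TPM against 13.82, 10.05 and 12.4 TPM (log2 difference 2.33 ± 0.22 SE, limma adjusted p = 7.6e-12). Prl4a1 stood at 10.72, 15.57 and 9.715 TPM in TGC and was listed at 0 in ExE.

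Prl2a1 was unlike these. It stood at 19.44, 15.99 and 18.9 TPM in TGC and at 22.09, 17.5 and 20.55 TPM in ExE, and the groups overlapped. The log2 difference was -0.14 ± 0.25 (SE; limma adjusted p = 0.99), and its sign changed under other scalings (0.05 after quantile normalization and 0.13 with median-ratio scaling).

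The ExE libraries of E4.75 also held markers of other tissues. The 4 epiblast markers summed to between 90.45 and 96.31 TPM there and to between 22.51 and 25.93 TPM in TGC of E4.75. The 7 primitive and visceral endoderm markers summed to between 272.7 and 303.8 TPM against between 50.55 and 55.1 TPM, and the 7 TE and ExE markers to between 3928.0 and 4379.7 TPM against between 6593.7 and 6924.2 TPM. Their part in the difference was not tested.

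In the embryos cultured to E5.5 the same contrast was wider. Of the 23 members, 19 were higher in TGC than in ExE of E5.5 in vitro, against 6.28% of all genes, again a description for the same reason. Among the 12 that passed the filter outside TGC, 11 were higher, beside 5.65% of such genes. The median over all genes was -0.51, a shift that quantile normalization moved to 0.007. Ctsq and Prl6a1 were listed at 0 in both groups, and Prl2c1 and Prl8a9 were not called. These ExE libraries too held markers of other tissues. Endoderm markers summed to between 379.4 and 491.4 TPM there, against between 3.154 and 9.691 TPM in TGC of E5.5. Epiblast markers summed to between 9.979 and 17.16 TPM, against at most 0.2506 TPM. Their part in this difference, or in the change of ExE over age below, was not tested.

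Psg22, for which ExE of E5.5 in vitro had a mean of 0.423 TPM, differed by 10.37 ± 0.23 log2 units (SE; limma adjusted p = 2e-39). Cts7 differed by 10.52 ± 0.28 (SE; limma adjusted p = 5.4e-36) and Prl3d1 by 11.22 ± 0.79 (SE; limma adjusted p = 1.3e-17). Prl7a1 was at 9.556, 7.58 and 5.255 TPM in ExE of E5.5 in vitro, where Prl3d3 had a mean of 4.10 TPM. Prl2a1, level between the tissues at E4.75, was now 7.14 log2 units higher in TGC (SE 0.23, limma adjusted p = 1.3e-31).

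**Figure D3:**
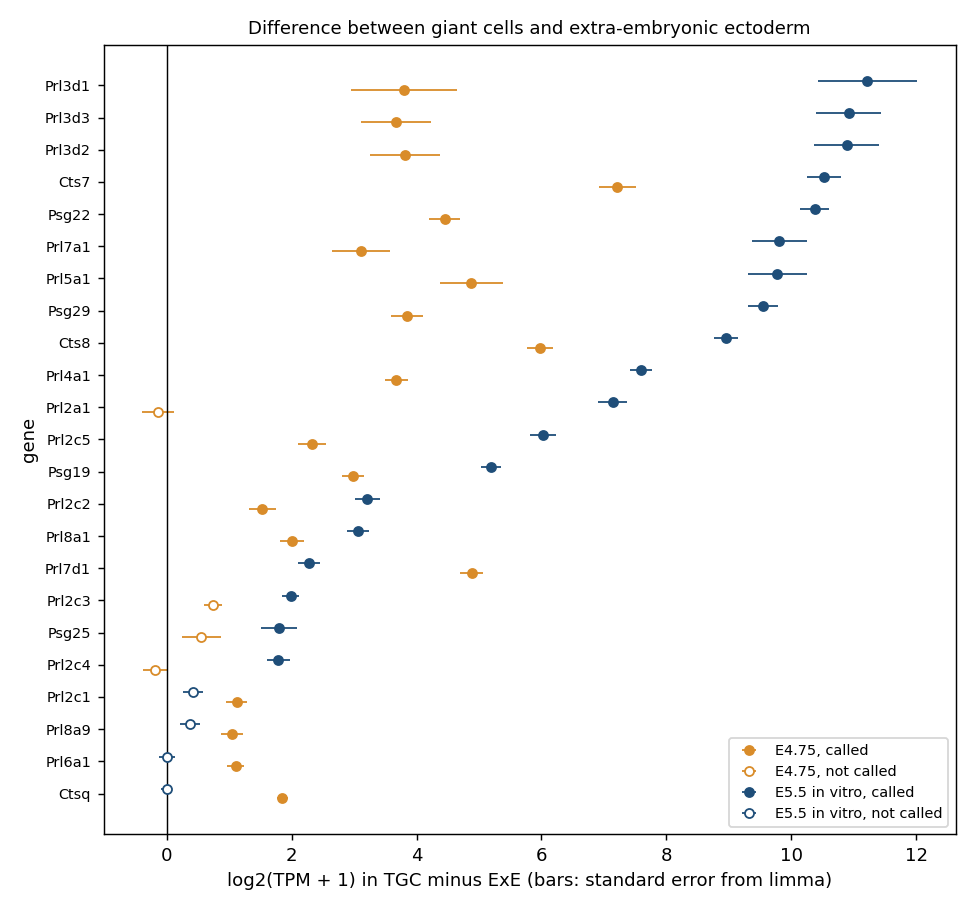
Log2 difference TGC minus ExE for the 23 tested members at E4.75 and at E5.5 in vitro, with limma standard errors; filled symbols passed the test. Cts7 leads at E4.75 with 7.21 and Prl3d1 at E5.5 with 11.22, and Prl2a1 moves from -0.14 to 7.14.

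The test of that change itself, TGC minus ExE at E5.5 in vitro less the same difference at E4.75, called 18 members higher and 3 lower, beside 3.73% and 16.1% of all genes. Among the 12 that passed outside TGC, 11 were higher and none lower, beside 3.27% and 16.2%. Over this interval members rose in TGC and fell in ExE, as given below. Since the culture status of the E4.75 groups is not stated, age and culture cannot be told apart here or in the comparisons over age that follow, and these share libraries with one another.

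In TGC, 16 members rose from E4.75 to E5.5 and 3 fell, while 6.57% of all genes rose and 14.8% fell. Among the 12 that passed outside TGC, 9 rose and none fell, beside 6.19% and 14.9%. The members rose by very different amounts. Prl7a1 went from 471.7, 400.0 and 450.3 TPM to 8443.9, 7782.2, 7040.4 and 6594.1 TPM, which took it from a rank between 397 and 460 among all genes to a rank between 8 and 11. It rose 16.9-fold (log2 difference 4.08 ± 0.43 SE, limma adjusted p = 3e-11).

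Prl4a1, a hormone that binds natural killer cells, went from 10.72, 15.57 and 9.715 TPM to 219.5, 196.5, 179.2 and 174.1 TPM (log2 difference 3.92 ± 0.17 SE, limma adjusted p = 2.3e-25). Prl2a1 went from 19.44, 15.99 and 18.9 TPM to 170.1, 168.6, 158.5 and 171.1 TPM (log2 difference 3.14 ± 0.23 SE, limma adjusted p = 2.2e-16). In both genes the ages did not overlap.

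The 3 Prl3d genes had smaller fold differences. Prl3d1 rose 5.22-fold (log2 difference 2.39 ± 0.79 SE, limma adjusted p = 0.016). Prl3d2 rose 4.06-fold (2.02 ± 0.52 SE, limma adjusted p = 0.0018) and Prl3d3 2.71-fold (1.44 ± 0.52 SE, limma adjusted p = 0.029). These 3 calls were not firm: the adjusted p values were 0.15, 0.12 and 0.37 with a pseudocount of 0.1 TPM, and quantile normalization, which sets the top gene of every library equal, gave Prl3d1 no difference by construction and adjusted p values of 0.10 and 0.15 for Prl3d2 and Prl3d3. That of Prl3d1 was 0.055 without replicate 2 of TGC at E4.75. Prl3d3 lost its call without any 1 of the 3 libraries of E4.75 or without replicate 1 or 2 of E5.5. The standard errors are not those of the TGC libraries alone, since the spread of a gene is estimated over all 23 groups. Among these is VE_Epi, with Prl3d1 at 0 and 65.5 TPM. In TGC the ages did not overlap for these genes. With 1 library left out the log2 differences ran from 2.30 to 2.43, from 1.96 to 2.06 and from 1.34 to 1.51, in the same order.

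Cts7 rose to 2817.7, 2732.1, 2536.1 and 2329.3 TPM (2.38-fold, log2 difference 1.25 ± 0.28 SE, limma adjusted p = 0.00025; 0.26 with a pseudocount of 0.1 TPM). Cts8 rose to 624.9, 670.9, 569.4 and 501.9 TPM (log2 difference 1.57 ± 0.19 SE, limma adjusted p = 2.2e-09). Every library of the later age was above every library of the earlier one in both genes. All 4 PSG tested rose. Psg22 reached 2075.7, 1971.4, 1737.2 and 1743.5 TPM (log2 difference 1.50 ± 0.23 SE, limma adjusted p = 2.9e-07). Psg29 reached 1570.0, 1392.5, 1337.3 and 1308.2 TPM (log2 difference 1.68 ± 0.24 SE, limma adjusted p = 7.2e-08). Psg19 reached 28.33, 38.41, 39.12 and 37.36 TPM, all above the E4.75 libraries. The other members that rose, Prl2c2, Prl2c3, Prl2c4, Prl8a1 and Psg25, had means between 2.65 and 9.93 TPM at E5.5 and log2 differences between 1.06 and 1.86. Of these, Prl8a1 lost its call without E4.75 replicate 2 or E5.5 replicate 1, and Psg25 without E4.75 replicate 2 or 3 or E5.5 replicate 2.

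The 3 members that fell were Prl7d1, Ctsq and Prl6a1. Prl7d1 fell from 51.35, 48.97 and 54.23 TPM to 3.259, 5.302, 3.124 and 4.062 TPM (log2 difference -3.43 ± 0.18 SE, limma adjusted p = 1.3e-22). Ctsq and Prl6a1, at means of 2.62 and 1.75 TPM at E4.75, were listed at 0 in all 4 libraries of E5.5.

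Prl5a1 and Prl2c5 showed no difference that passed the test. Prl5a1 stood at 1639.5, 1567.2, 1418.4 and 1285.8 TPM at E5.5, overlapping its E4.75 values (log2 difference 0.10 ± 0.47 SE, limma adjusted p = 0.99). Prl2c5 stood at 77.71, 65.38, 63.63 and 53.18 TPM, also overlapping (0.00 ± 0.21, adjusted p = 1); its reads can be shared with Prl2c2 and Prl2c3. As TPM are shares, the larger share of the Prl3d genes at E5.5 leaves less for all other genes; with median-ratio scaling the difference of Prl2c5 was 0.38 (adjusted p = 0.17).

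Genes high in giant cells and genes listed at 0 alternated along the prolactin cluster, which spans 1048.3 kb of chromosome 13 from Prl3d1 to Prl5a1 in the positions used here. Prl3c1, Prl3b1 and Prl3a1, the nearest genes after Prl3d3, were listed at 0 in both TGC groups, as were Prl8a2, Prl2b1, Prl8a8, Prl7a2 and Prl7c1. Prl7a1, 548.3 kb from Prl3d1, and Prl5a1, at the far end, were, with the 3 Prl3d genes, the 5 highest prolactin-like genes in TGC of both ages.

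**Figure D4:**
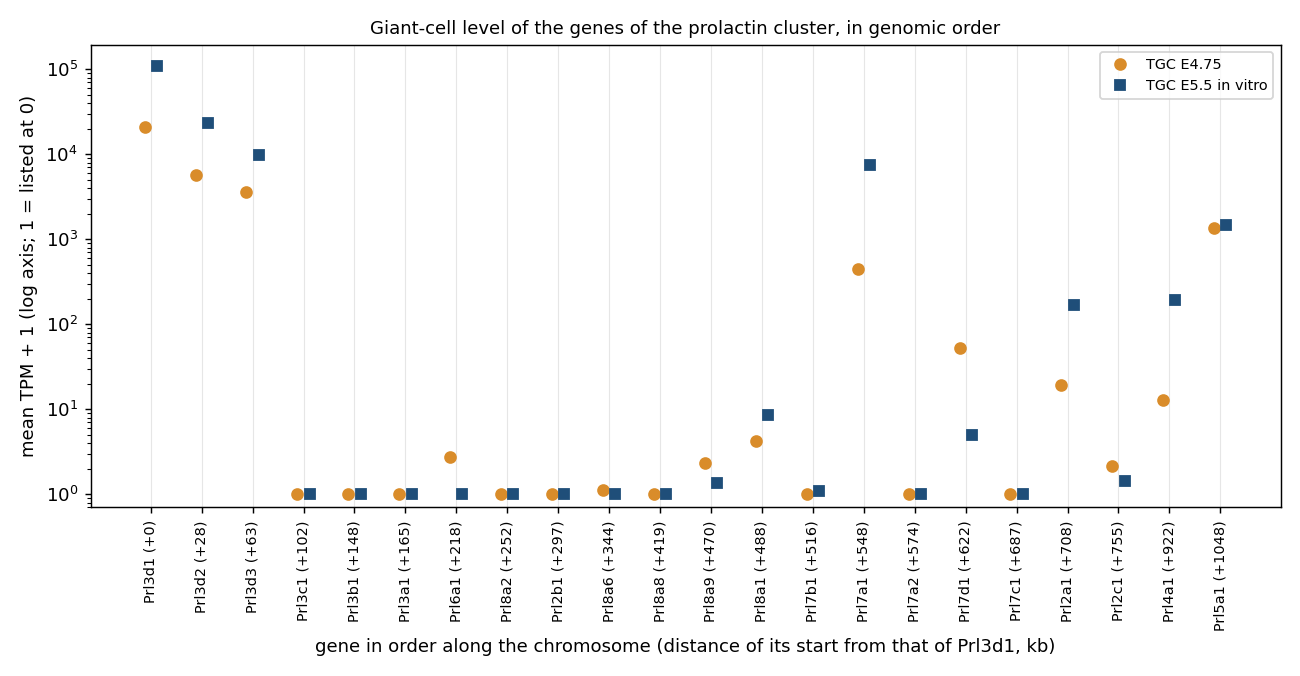
Mean TPM + 1 in TGC (log axis) of the prolactin genes of the chromosome 13 cluster in genomic order, with the distance of each start from that of Prl3d1 in kb; circles are E4.75 and squares E5.5. High genes lie at both ends and in the middle, with genes listed at 0 between them, and Prl7d1 is lower at E5.5.

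Before giant cells, the families were nearly absent. In TE of E4.5 Prl7a1 stood at 2.974, 1.417 and 3.184 TPM and Prl5a1 at 3.225, 0.7711 and 2.851 TPM, and both were listed at 0 in TE of E3.5. These were the 2 members called higher in TE of E4.5 than of E3.5, against 3.25% of all genes (limma adjusted p = 0.0022 and 0.011); that of Prl5a1 was 0.070 without replicate 1 and 0.054 without replicate 3 of E4.5. From TE of E4.5 to TGC of E4.75, 20 of 23 members were higher, against 12.8% of all genes. As above this is a description, and all 12 members that passed outside TGC were higher, beside 12.6% of such genes. In TE against ICM at E3.5 the 1 member called was Prl8a9, with a log2 difference of -2.57 ± 0.17 (SE; limma adjusted p = 8.5e-18), where 7.62% of all genes were lower.

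In ExE, 11 members fell from E4.75 to E5.5 in vitro, against 6.97% of all genes. The steepest was Prl3d3, at 309.3, 276.3 and 267.9 TPM at E4.75 and a mean of 4.10 TPM at E5.5 (log2 difference -5.81 ± 0.56 SE, limma adjusted p = 2.5e-12). Prl3d1 fell by 5.03 ± 0.85 log2 units (SE; limma adjusted p = 3.6e-06), and Prl5a1, Psg22, Prl2a1 and Psg29 by 4.80, 4.42, 4.14 and 4.03. Prl7a1 fell less, by 2.62, and the cathepsins Cts7 and Cts8 fell least of the 11, by 2.06 and 1.41. Against Epi of the same age, ExE of E4.75 had the same number of members higher, 11, beside 2.72% of all genes.

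Between ExE of E5.5 in vitro and in vivo, 1 member was called. Prl7a1 was at 9.556, 7.58 and 5.255 TPM in vitro and at 1.63 and 0.747 TPM in vivo, where 9.40% of all genes were higher in vitro (log2 difference 1.95 ± 0.52 SE, limma adjusted p = 0.0055). This call was lost with a pseudocount of 0.1 TPM, under quantile normalization, in the fit of these groups alone and without replicate 2 in vivo. For Prl3d1 the groups overlapped. Endoderm markers summed to between 379.4 and 491.4 TPM in vitro and between 9.046 and 18.47 TPM in vivo. Their part in this comparison was not tested.

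Outside trophoblast, members were found at E5.0 in PrE. Of the 23 tested, 6 were higher at E5.0 than in PrE of E4.75, against 1.01% of all genes, and all 6 were prolactin-like. This comparison was not among those planned and concerns a group where member levels stood out, so its counts and p-values are a description. Prl7a1 stood at 213.1, 232.1 and 179.3 TPM and was listed at 0 at E4.75 (log2 difference 7.70 ± 0.46 SE, limma adjusted p = 1.1e-18). Prl3d1 stood at 172.3, 155.1 and 131.7 TPM against a mean of 0.561 TPM (log2 difference 6.64 ± 0.85 SE, limma adjusted p = 4.8e-08). Prl3d3, Prl3d2, Prl2a1 and Prl2c5 had means of 43.3, 31.6, 17.0 and 10.2 TPM.

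Cts7, Cts8, Prl4a1 and Psg19 were at 0 in all 3 of these libraries. Psg22, Psg29 and Prl5a1 averaged 0.987, 0.996 and 0.705 TPM. At E5.25 the same 6 genes were lower again, against 1.32% of all genes lower, in a comparison that was not planned either. Prl7a1 then averaged 4.82 TPM and Prl3d1 stood at 8.353, 5.212 and 2.989 TPM.

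The proportions between members are set beside those of the trophoblast groups as a description. Prl7a1 stood at 123.7%, 149.7% and 136.2% of Prl3d1 in the PrE libraries of E5.0, and at 2.11% ± 0.0725 (SD, n = 3) in TGC of E4.75, 6.82% ± 0.371 (n = 4) in TGC of E5.5 and 3.34% in ExE of E4.75. Prl2a1 stood at 11.4% of Prl3d1 in PrE of E5.0 and at 0.0865% in TGC of E4.75. Prl5a1 stood at 0.447% and 6.56%. Prl2c5 stood at 6.70% and 0.309%. Prl3d2 stood at 18.14%, 20.17% and 24.56% in the PrE libraries, a range that includes the 21.3% of TGC at E5.5. Prl3d3 stood at 23.65%, 33.21% and 28.56% there, above every TGC library, where it averaged 17.4% at E4.75 and 9.03% at E5.5.

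**Figure D5:**
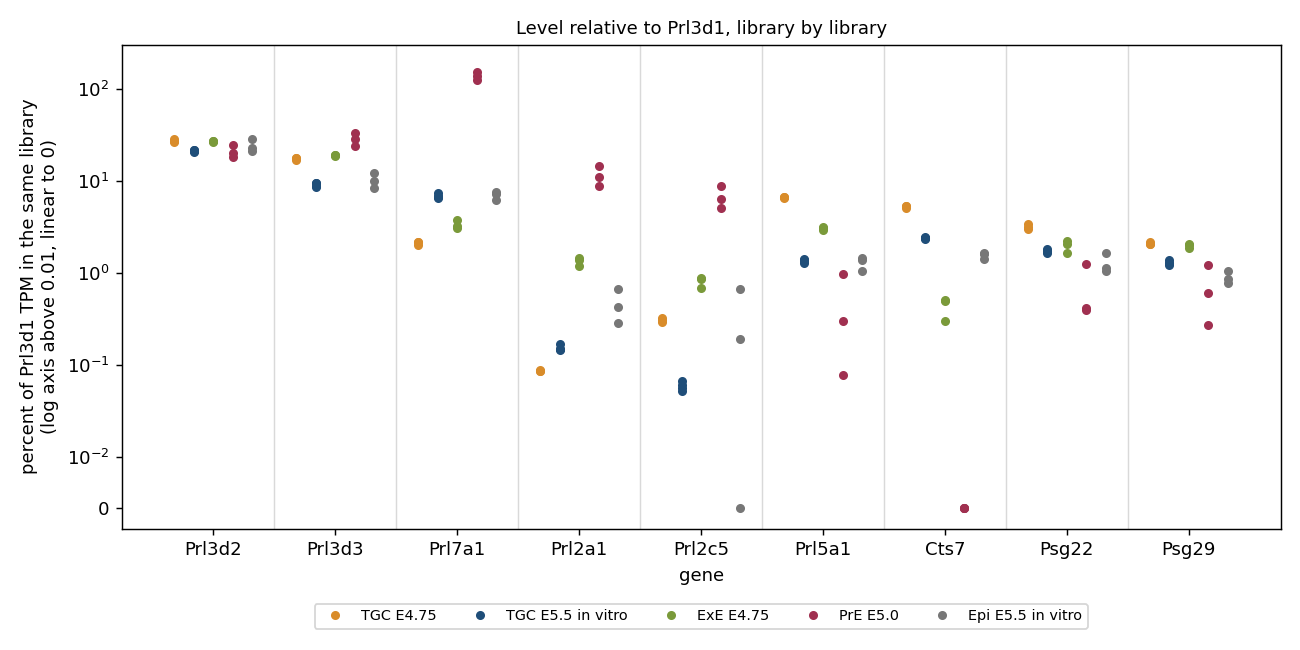
Level of 9 members as a percent of Prl3d1 in the same library (log axis above 0.01%, linear below) in TGC of both ages, ExE of E4.75, PrE of E5.0 and Epi of E5.5 in vitro. In PrE of E5.0, Prl7a1 is above 100% in all 3 libraries and Cts7 is listed at 0, while Prl2a1 and Prl2c5 are lower relative to Prl3d1 in TGC than in ExE of E4.75.

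In the PrE libraries of E5.0 the 7 endoderm markers summed to between 7857.1 and 8254.6 TPM. The TE and ExE markers summed to between 1253.0 and 1338.8 TPM, with Cdx2 and Esrrb at 0, against between 299.8 and 306.3 TPM at E4.75 and between 3080.5 and 3377.7 TPM at E5.25. The trophoblast regulators Hand1 and Tfap2c averaged 70.9 and 20.6 TPM at E5.0 against 0.209 and 0.529 TPM at E4.75. The part of these genes' tissues in the result was not tested.

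Epi of E5.5 in vitro was another group with these genes. Its comparison with Epi of E5.5 in vivo was not among those planned, so the count and p-values below are a description. Prl3d1 stood at 150.2, 187.4 and 79.92 TPM in vitro and was listed at 0 in both in vivo libraries. In all, 7 members were higher in vitro, against 15.1% of all genes, among them Prl3d1 (log2 difference 7.05 ± 0.95 SE, limma adjusted p = 6.2e-08) and Cts7 (1.64 ± 0.33, adjusted p = 0.00012). The count was 4 in the fit of these 5 libraries alone, where Cts7 was no longer called (adjusted p = 0.075). Prl3d3, at 6.732 and 0 TPM in vivo, lost its call without in vivo replicate 2 (log2 difference 0.88, adjusted p = 0.46).

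The proportions between members in these libraries are again a description. Prl7a1, Prl5a1 and Psg22 were at 6.99%, 1.30% and 1.27% of Prl3d1, beside 6.82%, 1.35% and 1.72% in TGC of E5.5. Prl2a1 was at 0.462% beside 0.153%. The giant-cell markers summed to between 85.82 and 198.3 TPM in these libraries and to 0 in vivo. Apart from Hand1 these markers are members, so the sum restates the member levels and is no independent check. Hand1 averaged 3.12 TPM in vitro and was at 0 in vivo. TE and ExE markers summed to between 327.2 and 408.5 TPM against between 150.8 and 175.1 TPM, with Cdx2 at 0 in both. Elf5 and Tfap2c were at 0 in vivo but not throughout in vitro. Of the 7 markers, 5 had a mean of 1 TPM or more in vitro and 3 in vivo. Their part in the difference was not tested.

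Visceral endoderm of E5.5 varied from library to library. Prl3d1 stood at 22.03, 108.8 and 21.78 TPM in VE in vitro, at 0 and 65.5 TPM in VE_Epi and at 0.2647, 25.95 and 77.31 TPM in VE_ExE. Between VE_ExE and VE_Epi limma called no member in either direction, where 3.58% of all genes were higher and 12.7% lower; 1 of 23, Prl4a1, had an unadjusted p under 0.05. It also had an adjusted p of 0.028 and missed the call only by the minimum difference (log2 difference -0.61 ± 0.21 SE). It was at 0 and 1.34 TPM in VE_Epi and at 0 in VE_ExE. The means of Prl3d1 were 50.9 ± 50.2 (SD, n = 3) in VE in vitro, 32.8 ± 46.3 (n = 2) in VE_Epi and 34.5 ± 39.2 TPM (n = 3) in VE_ExE. For this gene the spread within each group was about as large as its mean.

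The neighbouring pathways were read as gene lists, first between TGC and ExE at E4.75, where 2.12% of all genes were higher and 2.24% lower. Of 24 regulators of trophoblast and giant cells tested, 2 were higher. One was Fosl1, an AP-1 subunit, at a mean of 127.5 against 13.4 TPM (log2 difference 3.15, limma adjusted p = 1.6e-11). Hand1, the transcription factor needed for giant cells, averaged 368.2 and 277.7 TPM and was not called (adjusted p = 0.74). Of 18 other giant-cell and spongiotrophoblast products 3 were higher, among them the matrix protease Mmp9 at 26.1 against 0.465 TPM.

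Of 14 genes of the prolactin receptor pathway, limma called none at that age, and 4 had an unadjusted p under 0.05. The receptor gene Prlr itself averaged 0.318 and 0.852 TPM in TGC of E4.75 and E5.5. Of 11 PSG relatives and partners 2 were higher, led by Ceacam15 at 171 against 1.34 TPM (log2 difference 6.22, limma adjusted p = 2.5e-28). Of 16 widely expressed cathepsins and inhibitors 3 were higher and 1 lower. Ctla2b, related to the propeptide of cysteine proteases, was at 24.7 against 1.46 TPM, and the lysosomal protease Ctsh at 10.3 against 50.9 TPM.

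From E4.75 to E5.5 in TGC the same lists changed in both directions, beside 6.57% of all genes that rose and 14.8% that fell. Among the regulators 7 rose and 5 fell. Gata3, a GATA factor of trophoblast, averaged 158.7 and then 843.6 TPM (limma adjusted p = 0.0034), and Id2, an inhibitor of differentiation, 626.2 and then 4.97 TPM. Among other products 7 rose and 2 fell, with the vasodilator peptide gene Adm at 2.25 and then 103.4 TPM. Among PSG relatives and partners 3 rose and 2 fell: Ceacam9 averaged 0.381 and then 68.9 TPM, and Cd9, reported as a receptor for PSG17, 862.3 and then 233.5 TPM. Psg17 itself did not exceed 1 TPM in any TGC library.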

How the data were processed

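Smart-seq2 RNA libraries of 23 wild-type groups were amplified for 17 cycles, per the labels' protocols. For all libraries together, 1 table of TPM was deposited by the authors; the submitters' processing notes name HISAT2 2.2.1, StringTie 2.2.1, Cufflinks and mm10 without roles. The annotation, strand setting and handling of multiply mapped reads are not given in the sources used here. Column sums ran from 985702 to 996469 TPM; no counts were used, so read depth is unknown and no interval rests on it.

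The 15567 genes that reached 1 TPM in 3 or more libraries were fitted as log2(TPM + 1) in limma 3.58.1 (R 4.3.3) with 23 group means and an intensity trend, and p-values were Benjamini-Hochberg adjusted over all of them. Fold changes quoted as log2 are on the log2(TPM + 1) scale, which understates the change of low genes. A gene was called where the adjusted p was below 0.05 and the log2 difference 1 or more in size. Counts among genes that reached 1 TPM in 3 or more libraries outside TGC were added after the data were seen. The code was tested on simulated data. Replicate numbers were checked for pairing: in 0 of 14 comparisons did every pair of same-numbered libraries have a correlation above 0.1, with r from -0.048 to 0.084.

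Any member may be named. Library values are given for members that reach a mean of 10 TPM in some group and some others, called members are named by size, up to 10 per direction, and up to 3 called and 2 uncalled genes of each list; other genes named (Prlr, Psg17, Ctsq, Prl8a9) were chosen after their values were seen. The members, lists and comparisons were chosen with earlier results of these data known. The comparisons of PrE over age and of Epi of E5.5 in vitro with in vivo were not in the planned set. Coding identities and gene positions come from GENCODE M21 and promoter windows from RefSeq, both GRCm38, the build that mm10 names; 46 of 47 members had a position.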

Additional observations from a re-analysis of the deposited data

Results flagged for a closer look

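In TGC of E5.5, replicate 1 had 28.33 TPM of Psg19 against 38.41, 39.12 and 37.36 TPM in the other 3 libraries, a gap large for the group's range. Chance alone marks about 1 in 20 groups this way.

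The difference between TGC and ExE itself differed between E4.75 and E5.5 in vitro for 21 members, by limma's test of the change. The log2 change was largest for the lactogens and Prl2a1, at 7.42 for Prl3d1, 7.25 for Prl3d3, 7.07 for Prl3d2 and 7.28 for Prl2a1. It was 6.70 for Prl7a1, 5.92 for Psg22, 5.71 for Psg29 and 4.90 for Prl5a1. Prl4a1 changed by 3.92, Prl2c5 by 3.70, Cts7 by 3.31, Cts8 by 2.98 and Psg19 by 2.21.

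Among low genes it was 1.97 for Prl2c4, 1.68 for Prl2c2, 1.25 for Prl2c3, 1.24 for Psg25 and 1.06 for Prl8a1. The change was negative for Prl7d1 at -2.60, Ctsq at -1.85 and Prl6a1 at -1.11. With a pseudocount of 0.1 TPM the value of Prl7d1 was -0.60 (limma adjusted p = 0.68). For Psg25 the call was lost without replicate 2 or 3 of TGC at E4.75, or without replicate 2, 3 or 4 of TGC at E5.5. Prl8a1 fell below the minimum difference, to 0.77 without replicate 2 of TGC at E4.75 and 0.90 without replicate 1 of TGC at E5.5. Prl6a1 did so too, at -0.95 without replicate 3 of ExE at E4.75 and -0.85 without replicate 1 of TGC at E4.75.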

How the results depend on the processing

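Among recomputed counts of called members, 386 stayed within 1.5 times the reported count and 18 did not; among recomputed single members, 2140 kept their direction and side of the threshold, 74 lost the call and 9 changed sign. The causes were not tested. With a pseudocount of 0.1 TPM, 5 members fell in TGC over age (3 reported), 4 were higher and 1 lower in TE of E4.5 than of E3.5, 0 were higher in ExE in vitro than in vivo, and 1 was lower in VE_ExE than in VE_Epi. Without a minimum difference, 5 fell in TGC over age, 1 was lower in TE over age, 1 was lower in VE_ExE, and 5 had a lower TGC minus ExE difference at E5.5. The count for ExE in vitro against in vivo was also 0 after quantile normalization and in the fit of those groups alone, and the fit of the Epi groups of E5.5 alone called 4, an alternative chosen after seeing the data.

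Same-numbered libraries did not pair by the check in the processing account. With a replicate block, fitted on the groups compared, the count was 0 for ExE in vitro against in vivo and 0 for Epi in vitro against in vivo, and Prl2c5 over age in TGC was 0.0905; other counts of calls stayed within 1.5 times.

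Leaving out 1 library at a time, counts ran from 17 to 19 for TGC against ExE at E4.75, from 12 to 16 higher and 3 to 4 lower in TGC over age, from 16 to 18 higher and 2 to 3 lower for the change of TGC against ExE, from 0 to 1 in each direction for VE_ExE against VE_Epi, and from 0 to 1 for ExE in vitro against in vivo. In VE_ExE against VE_Epi, the 1 higher member was called without replicate 2 of VE_Epi or replicate 1 of VE_ExE, and the 1 lower member without replicate 1 of VE_Epi. Prl2c5 over age in TGC ran from -0.11 to 0.0905, and was 0.27 after quantile normalization and 0.38 with median-ratio scaling. Prl2a1 in TGC against ExE at E4.75 was 0.0507 and 0.13 under these. With depth unknown, small values near 0 TPM cannot be told from failed estimates.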
